A study of Mus musculus with 3 samples.

Results

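Matrix metalloproteinases (MMPs) and tissue inhibitors of metalloproteinases (TIMPs) were examined in Lewis lung carcinoma cells before and after in vivo selection for growth in bone. The genes were chosen by name, as Mmp2, Mmp3, Mmp9, Mmp10, Mmp11, Mmp13, Mmp14, Timp1, Timp2 and Timp3, and all probes that the platform annotation pairs with them were read. All 10 genes had at least 1 probe, 18 of the 45281 probes on the array, among 19057 genes with a named probe. LLC/luc is a C57BL/6 mouse lung cancer line that carries luciferase. Parental LLC/luc cells had been injected into the left ventricle of mice, and the LLC/luc BM 1st line was cultured from the resulting bone lesions. LLC/luc BM 2nd cells were cultured from the bone lesions that BM 1st cells formed in a further passage through mice. All 3 lines carried luciferase and were grown in DMEM with serum, and no other treatment is labelled. Each line was read on 1 Illumina mouse whole-genome bead array in 1 colour from 1 culture, so no replicate stands behind any value, no difference has a replicate check and no p-value is given. How host cells of the bone were removed from the cultures is not stated in the sources used here.

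MMPs are zinc-dependent endopeptidases that are made as inactive proenzymes, either secreted or anchored in the plasma membrane, and that cut collagens, proteoglycans and other proteins of the extracellular matrix. TIMPs bind the active site of MMPs and block them, and the balance of enzymes and inhibitors is known to set matrix turnover in tumours and in bone. MMP activity is regulated after transcription by proenzyme cleavage and by inhibitors, so mRNA levels such as those measured here are not enzyme activities.

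The deposited values are linear intensities whose sorted values match between arrays, which is what quantile normalization leaves. Probes for olfactory and vomeronasal receptors, 1503 in all, served as a gauge of background, set at their 95th percentile on each array. It was 109 on the parental, 109.8 on the BM 1st and 107 on the BM 2nd array. The receptor probes kept median intensities of 92.8, 92.3 and 92.0 in that order, so a background signal remained in the values. Ratios of dim probes can therefore understate a change in RNA. Each gene was read from its brightest probe, and it was compared where 1 or both of the arrays placed that probe above background. A gene was counted as higher or lower past a log2 ratio of 1 or -1, the threshold of the study. For scale, the middle 95% of receptor probes had log2 ratios from -0.24 to 0.23 between BM 2nd and parental cells and from -0.22 to 0.25 between BM 1st and parental cells. The median SD of the log2 ratio between probes of 1 gene was 0.14 and 0.13 in these comparisons, over 3154 genes with 2 or more probes above background. These figures describe the probes and arrays and do not replace biological replicates.

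Several MMP genes lie side by side in the mouse genome. In the order of RefSeq genes on chromosome 9, Mmp13, Mmp12, Mmp1b, Mmp3, Mmp1a, Mmp10, Mmp8, Mmp27, Mmp20 and Mmp7 follow each other as 10 neighbouring MMP genes. Of the genes examined here, Mmp3, Mmp10 and Mmp13 belong to this cluster, and they had different profiles over the 3 lines. The 120 bases before their annotated start are shown because all 3 hold the same kinds of motif. Capitals mark the AP-1 motif TGANTCA, bound by FOS and JUN proteins, and the TATA motif TATAAA. The sequences are on the plus strand of GRCm38.p6, from RefSeq, at chr9:7445702-7445821 for Mmp3, chr9:7502222-7502341 for Mmp10 and chr9:7272394-7272513 for Mmp13.
Mmp3: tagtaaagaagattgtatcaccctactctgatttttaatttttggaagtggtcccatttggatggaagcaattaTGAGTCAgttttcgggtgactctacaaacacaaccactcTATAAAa
Mmp10: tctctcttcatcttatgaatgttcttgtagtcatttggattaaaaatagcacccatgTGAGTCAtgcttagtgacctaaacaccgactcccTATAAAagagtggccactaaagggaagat
Mmp13: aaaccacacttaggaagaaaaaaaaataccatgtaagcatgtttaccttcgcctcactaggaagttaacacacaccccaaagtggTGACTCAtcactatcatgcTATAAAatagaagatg

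The AP-1 motif began 46 bases before the annotated start in Mmp3, 63 in Mmp10 and 35 in Mmp13. The TATA motif began 7, 29 and 16 bases before the start, and it did not overlap the AP-1 motif in any of the 3 genes. Windows from 250 bases before to 50 bases after the start were available for 8 of the 10 genes, the others being Mmp2 and Mmp9. On either strand, TGANTCA was in 3 of these 8 windows and in 7.81% of all 32851 windows, and TATAAA was in 3 of 8 and in 13.6% of all windows. The ETS-type motif AGGAAG, searched on both strands, was in 5 of the 8 windows and in 35.4% of all windows. The GC box GGGCGG, also on both strands, was in 5 of 8 and in 35.7%. TGANTCA reads the same on both strands, so each match is 1 site. A match describes the letters of a window and is not a measured binding site.

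Of the 10 genes, 9 lay above background on at least 1 array and 7 on all 3. Between BM 2nd and parental cells, Mmp3 and Timp2 were higher, Mmp13 was lower and the other 6 of the 9 genes compared passed neither threshold. Over all 10578 genes in that comparison, 1.83% were higher and 1.53% were lower. The median log2 ratio of the 9 genes was -0.06, against 0.01 over all genes. Between BM 1st and parental cells, Mmp3 was higher, Mmp13 was lower and 7 genes passed neither threshold, where 2.04% of 10375 genes were higher and 1.79% lower. The median of the 9 genes was then 0.45, against -0.01 over all genes. Between BM 2nd and BM 1st cells 0 of the 9 genes were higher and 0 were lower, where 3.01% of 10558 genes were higher and 1.78% lower, and the median was -0.10. With 9 genes compared, shares of this size correspond to less than 1 gene, so the counts of 0 say little. The comparisons share arrays and are not independent of each other.

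**Figure D1:**
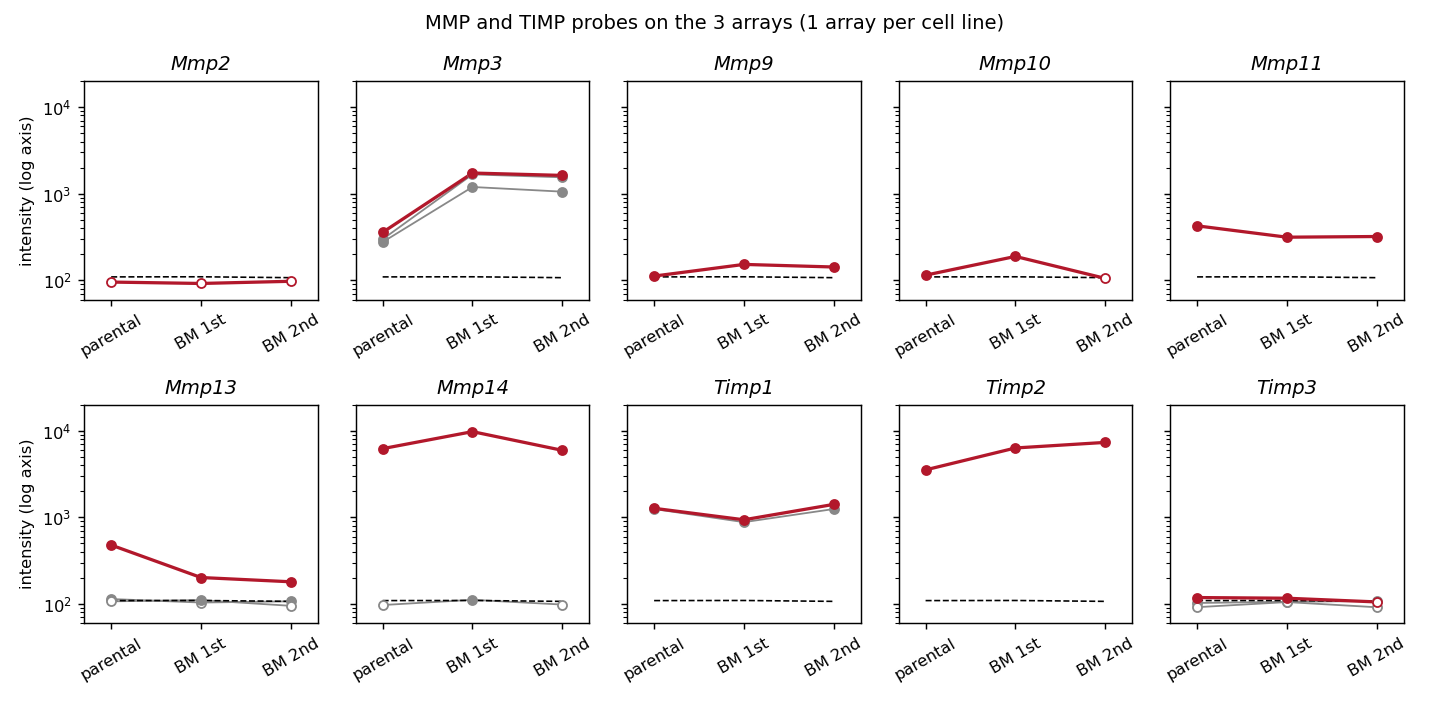
Intensity of every probe of the 10 MMP and TIMP genes (log axis, linear intensity units) in the parental, BM 1st and BM 2nd lines, 1 array each. Red is the brightest probe of a gene, grey its other probes, open circles are values not above background, and the dashed line is the background of 107 to 109.8. The 3 Mmp3 probes are higher in both bone-derived lines, and only the brightest of the 3 Mmp13 probes stands clear of background.

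Mmp3 encodes stromelysin-1, a secreted protease that cuts proteoglycans, fibronectin and laminin and can activate other proMMPs. Its brightest probe, ILMN_2899041, had an intensity of 358 in the parental, 1732 in the BM 1st and 1626 in the BM 2nd line. Both bone-derived lines were thus high and close to each other, with log2 ratios to parental cells of 2.28 and 2.18, or 4.84-fold and 4.55-fold. The log2 ratio of BM 2nd to BM 1st cells was -0.09, inside the range of the receptor probes, and 104% of the log2 difference seen in BM 2nd cells was present in BM 1st cells. Mmp3 ranked 27 of 10375 genes from the top in BM 1st cells and 36 of 10578 in BM 2nd cells. The gene has 2 further probes. ILMN_2704576 read 276, 1196 and 1056, and ILMN_2753809 read 298, 1669.8 and 1547, in the same order of lines. The log2 ratios of these probes were 2.11 and 2.49 in BM 1st and 1.94 and 2.38 in BM 2nd cells, so all 3 probes passed the threshold in both lines.

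Mmp10 and Mmp11 are the other genes named after stromelysin. Mmp10, which encodes stromelysin-2 and is the close relative of Mmp3 in the gene cluster, read 115 in the parental, 189 in the BM 1st and 105 in the BM 2nd line from its 1 probe. It was just above background in parental cells, clear of it in BM 1st cells and not above it in BM 2nd cells. The log2 ratio of BM 1st to parental cells was 0.72. In BM 2nd cells the level was at least 1.76-fold lower than in BM 1st cells. Against parental cells the log2 ratio was -0.12, inside the range of the receptor probes. In contrast to Mmp3, the BM 1st level was therefore not seen in BM 2nd cells. Whether the probes of these related genes bind each other's transcripts was not tested. The log2 ratios of Mmp3 and Mmp10 to parental cells differed by 1.56 in BM 1st cells. With the median of the receptor probes subtracted, the log2 ratio of Mmp10 was 2.14 in BM 1st cells, past the threshold. Mmp11 encodes stromelysin-3, which is activated inside the cell by furin and is known mainly from the stroma of carcinomas. It read 426 in the parental, 315 in the BM 1st and 320.3 in the BM 2nd line. Its log2 ratios to parental cells were -0.44 and -0.41, outside the range of the receptor probes but inside the threshold in both lines.

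Mmp13 encodes collagenase-3, the interstitial collagenase that cleaves fibrillar collagen in cartilage and bone of the mouse. Its brightest probe, ILMN_2737685, read 479 in the parental, 202 in the BM 1st and 181 in the BM 2nd line, all above background. Parental cells were the high line, and the log2 ratios were -1.25 in the BM 1st and -1.41 in the BM 2nd line, or 2.37-fold and 2.66-fold lower. It ranked 112 of 10375 and 45 of 10578 genes from the bottom, and 88.4% of the log2 difference of BM 2nd cells was present in BM 1st cells. The other probes of Mmp13 stayed near background. ILMN_1249336 read 114, 104 and 107, and ILMN_2799267 read 107, 111 and 95.2. Their log2 ratios to parental cells lay between -0.17 and 0.05, inside the range of the receptor probes. The lower level of Mmp13 thus rests on 1 probe of 3, and with the mean log2 ratio of all 3 probes, -0.44 in the BM 1st and -0.56 in the BM 2nd line, it did not pass the threshold. The annotation pairs all 3 probes with 1 and the same transcript record.

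Mmp2 and Mmp9 encode the gelatinases A and B, which cut denatured collagen and the type IV collagen of basement membranes. The study added recombinant lumican to BM 2nd cells with reduced lumican and measured gelatin cleavage. It reported increased protease activity with the higher dose of lumican, and that assay is not analysed here. Mmp2 read 95.4 in the parental, 91.9 in the BM 1st and 97.4 in the BM 2nd line, and its 1 probe did not rise above background in any line. No ratio is given for it. Mmp9 read 112, 153 and 142, just above background in parental cells and clear of it in both bone-derived lines. Its log2 ratios to parental cells were 0.45 in the BM 1st and 0.35 in the BM 2nd line, beyond the range of the receptor probes and short of the threshold. Subtracting the median of the receptor probes took them to 1.66 and 1.40, both past the threshold, so the call for Mmp9 depends on how background is treated.

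Mmp14 encodes the membrane-type protease MT1-MMP, which sits on the cell surface, cleaves collagen around the cell and activates proMMP2. Its brightest probe, ILMN_1240726, read 6222 in the parental, 9781 in the BM 1st and 5950 in the BM 2nd line. BM 1st was the high line, at a log2 ratio of 0.65 to parental cells, and BM 2nd cells read close to parental cells at -0.06. The log2 ratio of BM 2nd to BM 1st cells was -0.72. None of these ratios passed the threshold. The second probe, ILMN_1225091, which the annotation pairs with a different transcript record, was above background only in BM 1st cells and read 97.3, 112 and 98.5.

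Timp2 had the largest ratios to parental cells of the 3 inhibitor genes. TIMP2 inhibits MMPs and also forms a surface complex with MMP14 through which proMMP2 is activated. Its 1 probe, ILMN_2712867, read 3538 in the parental, 6335 in the BM 1st and 7346 in the BM 2nd line. Both bone-derived lines were above parental cells, at log2 ratios of 0.84 and 1.05, or 1.79-fold and 2.08-fold, and 79.7% of the log2 difference of BM 2nd cells was present in BM 1st cells. It passed the threshold in BM 2nd cells only and by a small margin, and its log2 ratio of 0.21 between BM 2nd and BM 1st cells lay inside the range of the receptor probes.

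Timp1, an inhibitor of most secreted MMPs, was lower in BM 1st cells and near the parental level in BM 2nd cells. Its brightest probe, ILMN_3103896, read 1274 in the parental, 939 in the BM 1st and 1414 in the BM 2nd line, and the second, ILMN_2769918, read 1249.5, 881 and 1249.7. Both probes were lowest in BM 1st cells, with log2 ratios to parental cells of -0.44 and -0.50. In BM 2nd cells the ratios were 0.15 and 0.00, inside the range of the receptor probes, and between BM 2nd and BM 1st cells they were 0.59 and 0.50. No ratio of Timp1 passed the threshold. Timp3, whose product binds to the matrix and also blocks ADAM proteases, stayed at the edge of background. Its brightest probe, ILMN_2741096, read 119 in the parental, 117 in the BM 1st and 106 in the BM 2nd line. The last value was not above background. On the log2 scale the BM 2nd reading lay at -0.17 from the parental one, inside the range of the receptor probes. A lower Timp3 level in BM 2nd cells is therefore not shown. The 2 other probes read between 91.7 and 108, and only 1 of these values, in BM 2nd cells, was above background.

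**Figure D2:**
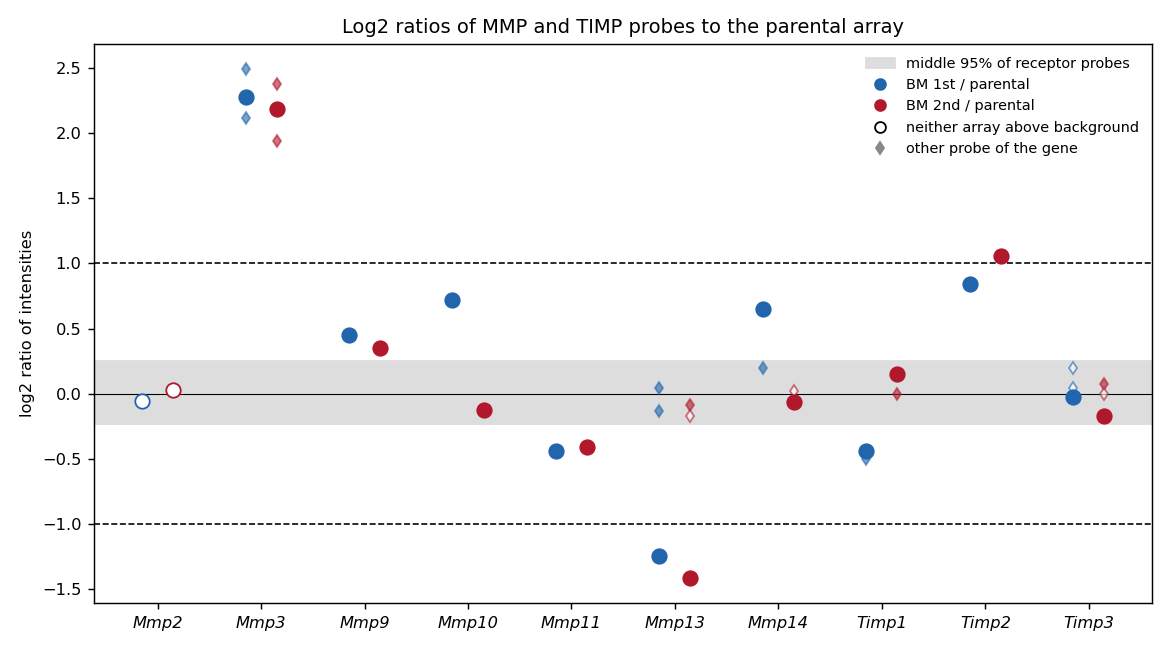
Log2 ratio of each MMP and TIMP probe to the parental array, for BM 1st (blue) and BM 2nd cells (red). Circles are the brightest probe of a gene, diamonds its other probes, open symbols have neither array above background, the grey band is the middle 95% of receptor probes and dashed lines mark the threshold of 1 and -1. All 3 Mmp3 probes lie above the upper line for BM 1st and BM 2nd cells, and 1 Mmp13 probe lies below the lower line while the others lie in the band.

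Set against each other, the members differed in how far apart their ratios lay, and a difference of log2 ratios compares changes and not levels. The log2 ratio of Mmp3 exceeded that of the cluster gene Mmp13 by 3.52 in the BM 1st and 3.59 in the BM 2nd line, both against parental cells. Against the inhibitors, the ratio of Mmp3 exceeded that of Timp2 by 1.43 and 1.13 and that of Timp1 by 2.72 and 2.03. For the partners Timp2 and Mmp14, the ratios differed by 0.19 in the BM 1st and by 1.12 in the BM 2nd line, since Mmp14 was back near the parental level there and Timp2 was not. Timp1 moved relative to Mmp14 by -1.09 in the BM 1st and by 0.22 in the BM 2nd line. Among the inhibitors, the ratio of Timp2 exceeded that of Timp1 by 1.28 and 0.90. BM 1st cells thus had the highest Mmp14 and the lowest Timp1 intensity of the 3 lines, though neither ratio to parental cells passed the threshold. By their brightest probes, Mmp3, Mmp9, Mmp11, Mmp13 and Timp2 kept the same side in both bone-derived lines, beyond the range of the receptor probes. The other Mmp13 probes lay inside that range.

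**Figure D3:**
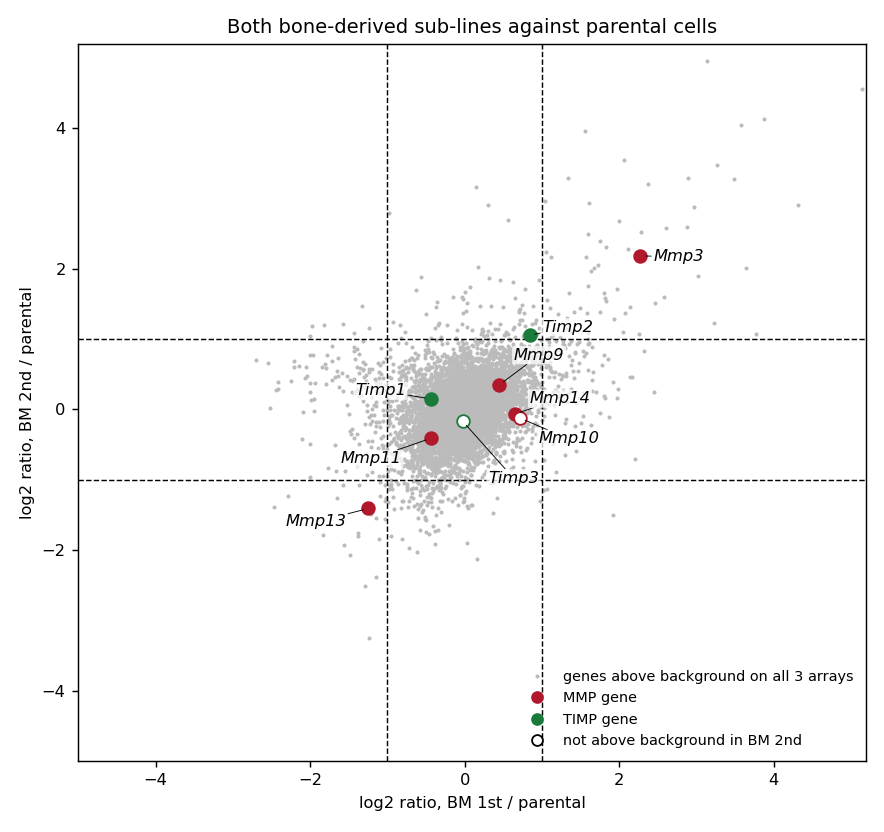
Log2 ratio of the BM 2nd to the parental line (vertical) against that of BM 1st to parental cells (horizontal) for the 8646 genes above background on all 3 arrays (grey), with MMP genes in red and TIMP genes in green. Both axes share the parental array. Open circles were not above background in the BM 2nd line and dashed lines mark 1 and -1. Mmp3 lies beyond both upper lines, Mmp13 beyond both lower lines, and Mmp2 is not drawn.

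The genes whose pair of log2 ratios to parental cells lay nearest to each called member were looked up among those 8646 genes. Nearest to Mmp3 were Hoxc6, a homeobox transcription factor gene, 2510009E07Rik and Olfml2b, at Euclidean distances of 0.18, 0.34 and 0.46. They were the 3 genes within a distance of 0.5, and Hoxc6 read 198, 861 and 962 in the order parental, BM 1st and BM 2nd. Nearest to Mmp13 were Cxadr, the coxsackievirus and adenovirus receptor gene, Arpc5l, a gene of the actin-nucleating Arp2/3 complex, and Lonp1, a mitochondrial protease gene, with 30 genes within 0.5. Nearest to Timp2 were the phosphodiesterase gene Pde4b, the histone demethylase gene Kdm3a and the homeobox gene Meis1, with 195 genes within 0.5. Fewer genes lay near Mmp3 than near Timp2, whose ratios are smaller and lie in a denser range of genes. Nearness over 3 arrays describes these arrays and nothing else.

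The rest of the MMP and TIMP family showed little signal. Of 17 further family genes 15 had a probe, and 10 of them, Mmp1b, Mmp7, Mmp8, Mmp16, Mmp17, Mmp19, Mmp20, Mmp21, Mmp25 and Timp4, were not above background on any array. None of the other 5, Mmp1a, Mmp12, Mmp23, Mmp24 and Mmp28, passed the threshold in any comparison. Mmp12, the macrophage elastase gene of the same cluster, read 100 in the parental, 170 in the BM 1st and 96.0 in the BM 2nd line. It was above background only in BM 1st cells, where it was at least 1.55-fold higher than in the parental line. Mmp10 and Mmp12, both of the chromosome 9 cluster, thus had their highest reading in the same line.

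The genes around MMP activation were more varied. For this list and those that follow, shares over all genes are the yardstick. Between BM 2nd and parental cells 1.83% were higher and 1.53% lower, with a median log2 ratio of 0.01. Between BM 1st and parental cells the shares were 2.04% and 1.79%, and between BM 2nd and BM 1st cells 3.01% and 1.78%. Of 18 genes with a probe among activators, surface partners and other inhibitors, 12 were compared between BM 2nd and parental cells, with 1 higher and 1 lower and a median log2 ratio of 0.28. Pcolce, the procollagen C-proteinase enhancer gene, was higher at 1.18, and Plau, which encodes the urokinase that generates plasmin, an activator of proMMPs, was lower at -1.55. Plau read 841 in the parental, 554 in the BM 1st and 288 in the BM 2nd line. Between BM 1st and parental cells 1 of 14 genes was higher, Thbs2 at 1.31, and 2 were lower, Pcolce at -1.97 and the tissue plasminogen activator gene Plat at -1.14. Thrombospondin-2, the product of Thbs2, is known to clear MMP2 from the cell surroundings. Pcolce and Plat were the low genes of BM 1st cells alone, and both were higher in BM 2nd than BM 1st cells, at log2 ratios of 3.16 and 1.52.

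Other protease families held few called genes. Of 9 ADAM and ADAMTS genes compared in each case, 1 was higher in BM 2nd than in the parental line. This was the aggrecanase gene Adamts4, at least 2.06-fold higher since parental cells were not above background. Adamts9 was lower in BM 1st than in the parental line at -1.46 and higher in BM 2nd than BM 1st cells at 1.19. Of 11 cathepsin and cystatin genes, 0 passed between BM 2nd and parental cells. Between BM 1st and parental cells Ctsl, the gene of the lysosomal protease cathepsin L, was higher at 1.20 and read 133, 307 and 168 in parental, BM 1st and BM 2nd cells.

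Genes of transcription factors known to act on MMP promoters were also read. Between BM 1st and parental cells 2 of 17 were lower, the AP-1 genes Fos at -2.00 and Fosb at -1.53, and the list median was 0.03. Fos read 7346 in the parental, 1836 in the BM 1st and 9493 in the BM 2nd line. Junb, a further AP-1 gene, was the 1 of 17 genes that was higher in BM 2nd than in the parental line, at 1.14, and it read 2893, 3914 and 6363. Fos and Fosb were higher in BM 2nd than BM 1st cells by log2 ratios of 2.37 and 2.01. Promoter sequences of Mmp3, Mmp10 and Mmp13 above hold the AP-1 motif. Between the same lines, the brightest probes gave -0.09 for Mmp3 and -0.16 for Mmp13, and Mmp10 was at least 1.76-fold lower in BM 2nd cells. A part of these factors in the levels of MMP genes was not tested.

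Among matrix proteins that MMPs are known to cleave, 3 of 16 genes were higher in BM 2nd than in the parental line and 0 were lower, with a median of 0.17. They were Col1a1, a chain of type I collagen, at least 3.76-fold higher, and the small proteoglycan genes Dcn at 2.59 and Bgn at 3.21. Dcn and Bgn were also higher in BM 1st cells, at 2.61 and 2.37. Dcn read 1027 in the parental, 6259 in the BM 1st and 6174 in the BM 2nd line and so, like Mmp3, reached its level in BM 1st cells. Between BM 2nd and BM 1st cells 4 of 15 were higher, Col1a1 at 1.78, Col2a1 by at least 1.79-fold, Col3a1 at 1.22 and Sparc at 1.09. The 1 lower gene was Lamc1 at -1.11, and its second probe gave -1.24. Other probes of the higher genes did not all pass the threshold. They gave 0.46 and 0.39 for Col2a1, 0.86 for Col3a1, and 1.30 and 0.46 for Sparc. Col1a2, also on this list, stayed near background at 110, 107 and 104 in parental, BM 1st and BM 2nd cells.

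**Figure D4:**
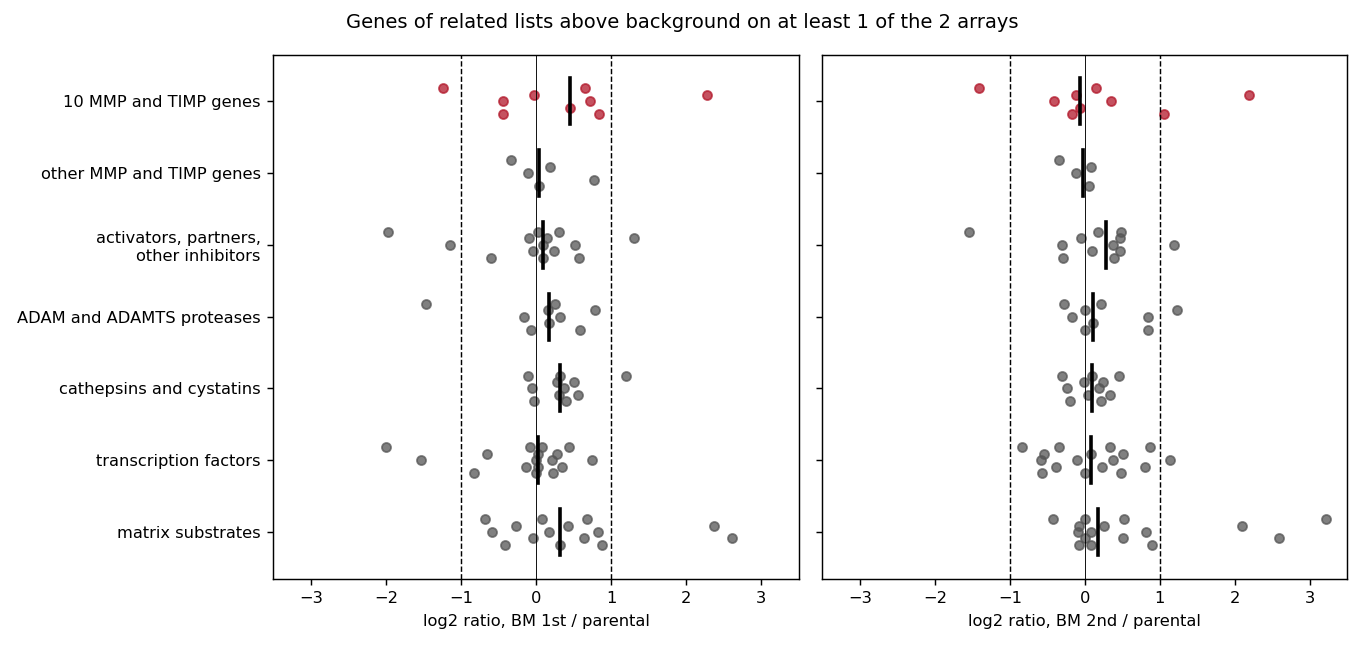
Log2 ratios to parental cells of BM 1st (left) and BM 2nd (right) for genes of each list above background on 1 or both arrays compared, with 1 point per gene, a bar at the list median and dashed lines at 1 and -1. The 10 MMP and TIMP genes, 9 of them drawn, spread from -1.41 to 2.18 in BM 2nd cells, and the matrix substrates reach 3.21.

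Markers of cell types that a culture from bone could hold were read beside these values. Of 6 genes listed for the carcinoma line, the epithelial keratin genes Krt8 and Krt18, the cadherin gene Cdh1 and the mesenchymal gene Vim were above background, with Cdh1 at most 125, while the epithelial genes Krt19 and Epcam were not on any array. The epithelial part of the label thus rests here on some of its markers. Of 8 neutrophil markers 7 were not above background, Mmp8 among them, and Elane read at most 117. Of 8 osteoclast markers Acp5, Calcr, Ocstamp, Dcstamp and Atp6v0d2 were not above background, and Mmp9 is itself on that list. The summed intensity of the list was 773 in the parental, 853 in the BM 1st and 826 in the BM 2nd line. The macrophage list, with 7 genes measured, summed to 888, 2139 and 1223. Most of that difference was the brightest Lyz2 probe at 79.5, 1078 and 365, while Itgam and Tyrobp were not above background. Another Lyz2 probe read 109, 510 and 206, and the remaining Lyz2 probe was not above background in any line. The stromal list summed to 3219, 10339 and 16266, and 4 of the 8 genes compared, Col1a1, Pdgfra, Dcn and Lum, were higher in BM 2nd than in the parental line, while Pdgfrb and Thy1 were not above background on any array. Dcn, Lum and Pdgfra carried most of the sum in BM 1st cells, where Col3a1 read 833 against 1107 in the parental line. The osteoblast list, which shares Col1a1, summed to 532, 549 and 924, and the endothelial list to 516, 518 and 515. The summed stromal intensity, like the Mmp3 and Timp2 readings, was above the parental value in both bone-derived lines. The macrophage list was highest in BM 1st cells, as were the Mmp3, Mmp9, Mmp10, Mmp12 and Mmp14 readings. In BM 2nd cells that list, at 1223, was still above its parental sum of 888, while Mmp10, Mmp12 and Mmp14 did not read above their parental values. The part of other cells in these results was not tested, and in RNA of whole cultures a different number of cells of a type and a different RNA level per cell cannot be told apart.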

How the data were processed

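The authors hybridised RNA of the parental LLC/luc line and its BM 1st and BM 2nd sub-lines to Illumina mouse bead arrays, 1 array per line. The deposited table holds linear intensities for 45281 probes. GenomeStudio 2011.1 is named in the processing notes of the submitters, and its settings for normalization and background are not stated there. Sorted from low to high, the intensities of any array match those of the others to within 0.274, which is what quantile normalization leaves.

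Log2 ratios of these intensities were computed in Python 3.11.15 (numpy 2.4.6, pandas 2.3.3) and drawn with matplotlib 3.10.9. The platform annotation gave the gene of each probe, updated to current RefSeq symbols (GRCm38.p6). It pairs 34885 probes with 1 gene, 18 with several, which were left unnamed, and 10378 with none. Each gene is represented by the probe that was brightest over the 3 arrays, by mean log2 intensity. Where 1 of 2 arrays was above background, the fold is a bound, calculated against the background or the dim intensity, whichever was higher. With 1 array per line no test was possible. The counting of genes past the threshold was run on simulated data, with changes well past the threshold in genes well above background. That run checks the code and does not cover dim genes or ratios near the threshold.

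All 10 genes are named with every probe. Of the 6 related lists and 7 marker lists, genes past the threshold and defining markers are named. For each called member above background on all arrays the 3 nearest genes are named. The genes, lists and tests were chosen with earlier results of these data known. Alternatives varied the background filter, its level and subtraction, centring, the choice of probe and the threshold. Protein, gelatin cleavage and animal data are not analysed here.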

Additional observations from a re-analysis of the deposited data

Results flagged for a closer look

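Timp1 was flagged because the log2 ratios of its brightest probe to parental cells had opposite signs, at -0.44 in the BM 1st and 0.15 in the BM 2nd line. The BM 2nd value lay inside the range of the receptor probes, and the second probe gave 0.00 there. The log2 ratio of BM 2nd to BM 1st cells was 0.59, and the second probe of the gene gave 0.50. With 1 array per line the difference was not tested, and it did not pass the threshold of 1.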

How the results depend on the processing

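Of 158 log2 ratios of the 9 genes compared (all but Mmp2) under the alternatives, 135 moved by less than the median SD between probes of a gene, 23 moved by more, and 0 called values changed sign. Many of the 135 could hardly move. The background filters reuse the same ratio, the means over probes leave genes with 1 probe unchanged, and centring shifted ratios by at most 0.035. The count of 135 therefore says little about stability. The lower call of Mmp13 depended on the choice of probe: with the mean of all probes, or of those above background, the count of lower genes was 0 in place of 1 against parental cells in both BM 1st and BM 2nd cells. A log2 threshold of 1.5 also left 0 lower genes in both, and 1 higher gene, Mmp3, in BM 2nd cells in place of 2. Over all genes it called 78 higher and 35 lower between BM 2nd and parental cells in place of 194 and 162. In BM 1st cells it called 95 and 59 in place of 212 and 186. A 1.5-fold threshold gave 4 higher genes in BM 1st cells in place of 1 (Mmp3, Mmp10, Mmp14 and Timp2), and between BM 2nd and BM 1st cells 1 higher (Timp1) and 2 lower genes (Mmp10 and Mmp14) in place of 0. Over all genes that threshold called 674 higher in BM 1st than in the parental line in place of 212, and between BM 2nd and BM 1st cells 902 higher and 751 lower in place of 318 and 188. Background subtraction gave 3 higher genes in BM 1st cells (Mmp3, Mmp9 and Mmp10) and 1 lower between BM 2nd and BM 1st cells (Mmp10, at the floor in BM 2nd cells), and over all genes it raised the calls between BM 2nd and parental cells from 194 higher and 162 lower to 620 and 511, and those in BM 1st cells from 212 and 186 to 602 and 569. The mean of all probes lowered the calls to 109 and 101 between BM 2nd and parental cells, and to 137 and 108 in BM 1st cells. Levels of Mmp2, Mmp9, Mmp10 and Timp3 lay within or near background, which limits their ratios. No paired analysis was possible because each line has 1 array.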
